A study of Mus musculus with 33 samples.

Results

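The ErbB receptors and their ligands were followed through mouse mammary tumours as 10 genes, the receptors Egfr, Erbb2, Erbb3 and Erbb4 and the ligands Areg, Ereg, Hbegf, Tgfa, Btc and Nrg1. They were taken by gene symbol from a table of read counts for 54532 genes. Of the 10, 9 had a row under their own symbol. The row with the Ensembl identifier of Areg, ENSMUSG00000029378, carried the symbol Mcub, which the table also gave to a second gene, so Areg was found by its identifier in GENCODE M21 and all 10 members are described.

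The series held RNA-seq counts for 33 samples, of which 32 were used in 6 groups named here by their titles, all labelled as mammary tumour of genotype FVB. The protocol describes tumours transplanted into mice, and does not say which samples were transplants. M20_7 (4 tumours) received RP-6306, an inhibitor of the kinase PKMYT1, and VEH_7 (3 tumours) received vehicle. MYT (11 tumours) received RP-6306 and VEH (4 tumours) received vehicle, in a set without the suffix _7, whose meaning the labels do not give. SPON (5 tumours) and WT (5 tumours) were untreated. The design text names cyclin E transgenic and PyMT tumours, driven by cyclin E and by the polyomavirus middle T antigen, and no label says which of SPON and WT is which, nor which tumour line, transgene promoter or treatment time belongs to a sample. The dose of RP-6306 was 20 mg/kg, given daily in the protocol and under a twice-daily abbreviation in the sample field. VEH2860, titled vehicle and labelled RP-6306, entered no group. The labels do not tie each sample to an animal of its own. The p-values therefore rest on the variation from sample to sample, part of which may be technical.

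ErbB receptors are tyrosine kinases of the cell surface that pair with each other once a ligand with an EGF-like fold binds. Egfr takes up Tgfa and Areg, which bind it alone, and Hbegf, Btc and Ereg, which also bind Erbb4. Nrg1 binds Erbb3 and Erbb4, Erbb2 has no known ligand and serves as the preferred partner of the others, and Erbb3 has little kinase activity of its own and recruits PI3K. In the mammary gland Areg carries the estrogen signal for duct growth through Egfr, Erbb4 is needed for full differentiation at lactation, and ERBB2 is amplified in a subset of human breast cancers.

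The libraries of M20_7 and VEH_7 held 26517748 to 34637096 counts and those of the other groups 13701115 to 20105407. Levels are CPM (counts scaled to library size) with TMM factors over all 33 libraries. Comparisons between genes use CPM per kb of exon, with exon lengths from GENCODE M21. Markers of luminal epithelium, 10 genes fixed for the tissue check, summed to 30.9 to 65.1 CPM in M20_7 and 21.9 to 87.1 in VEH_7, where Epcam, a defining epithelial gene, was at 0.977 to 9.75 CPM. The sum was 4408.7 to 12025.6 CPM in MYT, 612.7 to 1843.8 in VEH, 4412.1 to 11757.0 in SPON and 4021.8 to 5320.9 in WT. The label mammary tumour was thus met by epithelial markers in MYT, SPON and WT and hardly in the set titled _7. VEH lay between them by the luminal sum, but its Epcam was at 238.6, 26.3, 8.92 and 9.86 CPM, against 968.9 to 1933.5 in MYT. Mesenchymal markers, 12 genes, grouped VEH with the set titled _7. They summed to 26338.5 to 36806.2 CPM in M20_7, 27560.0 to 49272.6 in VEH_7 and 24176.2 to 40355.0 in VEH. The sums were 2377.2 to 7649.7 CPM in MYT, 1370.9 to 6835.3 in SPON and 846.4 to 2243.8 in WT. In bulk RNA, fewer cells of a type and less RNA per cell cannot be told apart.

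The genes lie apart in the genome except for a group of ligands. On GRCm38, Epgn, Ereg, Areg and Btc lie within 375.5 kb of chromosome 5, Egfr (16752203 to 16918158) and Erbb2 (98412470 to 98437716) lie on chromosome 11, Erbb3 on chromosome 10, Erbb4 on 1, Tgfa on 6, Nrg1 on 8 and Hbegf on 18. Exons of Erbb2 overlap those of Mien1 on the opposite strand, only within 98437708 to 98437716. Exons of Ereg, Tgfa and Nrg1 each overlap a predicted gene (Gm19610, Gm43917 and Gm26578) on the opposite strand. The sources used here do not give whether the counting used strand, so reads in these stretches cannot be told apart.

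The sequences before the transcription start are shown for the members that were higher together in MYT than in VEH tumours and had an entry (Erbb2, Areg and Tgfa), and for Egfr, which was lower. Each is the 250 bases upstream of the RefSeq start on GRCm38.p6, and capitals mark exact matches, on either strand, to a GC box (GGGCGG), an AP-2 motif (GCCNNNGGC), a TATA box (TATAAA) or a cAMP response element (TGACGTCA). RefSeq promoters were matched for 6 of the 10 members.
Erbb2, chr11:98412234-98412483, plus strand: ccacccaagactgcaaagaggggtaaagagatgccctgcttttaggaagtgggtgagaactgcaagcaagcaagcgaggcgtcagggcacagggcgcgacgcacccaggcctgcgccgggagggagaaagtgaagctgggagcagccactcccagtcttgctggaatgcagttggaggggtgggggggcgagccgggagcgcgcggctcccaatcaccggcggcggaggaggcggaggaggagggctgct
Areg, chr5:91139349-91139598, plus strand: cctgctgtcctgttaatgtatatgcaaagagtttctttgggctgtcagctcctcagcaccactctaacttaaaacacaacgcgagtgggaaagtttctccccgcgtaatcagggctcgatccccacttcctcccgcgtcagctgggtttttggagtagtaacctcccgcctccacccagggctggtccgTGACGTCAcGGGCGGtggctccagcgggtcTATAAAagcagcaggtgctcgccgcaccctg
Tgfa, chr6:86194972-86195221, plus strand: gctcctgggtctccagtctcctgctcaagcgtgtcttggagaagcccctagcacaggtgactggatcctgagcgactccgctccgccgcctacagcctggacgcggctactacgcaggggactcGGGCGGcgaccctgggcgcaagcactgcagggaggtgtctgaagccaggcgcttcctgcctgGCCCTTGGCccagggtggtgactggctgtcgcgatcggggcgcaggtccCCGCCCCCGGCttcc
Egfr, chr11:16751953-16752202, plus strand: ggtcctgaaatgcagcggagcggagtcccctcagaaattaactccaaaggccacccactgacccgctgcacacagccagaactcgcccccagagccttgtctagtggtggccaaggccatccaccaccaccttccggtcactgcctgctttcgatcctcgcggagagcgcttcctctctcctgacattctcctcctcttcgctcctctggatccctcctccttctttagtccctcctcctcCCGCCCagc
The Areg sequence held a TATA box 31 bases before the start, which 12.4% of 32851 promoters of this length hold somewhere, and a GC box, which 32.7% hold. It also held the cAMP response element, which was searched for after the sequence had been read and is present in 1.55% of promoters. Tgfa held GC boxes and AP-2 motifs (13.7% of promoters), with an overlapping pair next to the start, and 69.2% of its bases were G or C, against a median of 52.4% over all promoters. Egfr held a GC box. Erbb2 held none of these letters in this window, and none of the 4 held an AP-1 (TGANTCA, 6.75%) or E-box motif (CACGTG, 6.02%). A match describes the letters and is no evidence of binding.

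Among the receptors, Erbb3 and Erbb2 separated MYT, SPON and WT tumours from the other groups, Egfr ran in another order, and Erbb4 was seen in WT and in 1 SPON tumour. Erbb2 was at 102.5, 170.8 and 206.3 CPM (lowest, median, highest) in the 11 MYT tumours, against 58.9, 38.4, 39.3 and 39.9 in VEH. It was at 37.1, 46.2, 37.9 and 36.5 CPM in M20_7, against 32.4, 38.1 and 55.3 in VEH_7. The ranges of MYT and VEH were apart, and those of M20_7, VEH_7 and VEH overlapped. In SPON it was at 154.0, 161.3, 85.4, 147.8 and 96.0 CPM, against 75.3, 124.8, 89.6, 147.7 and 145.6 in WT, overlapping with each other and with MYT. Group means of Erbb2 fell in the order MYT, SPON, WT, VEH, VEH_7, M20_7, and the only neighbours in that order whose ranges were apart were WT and VEH.

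**Figure D1:**
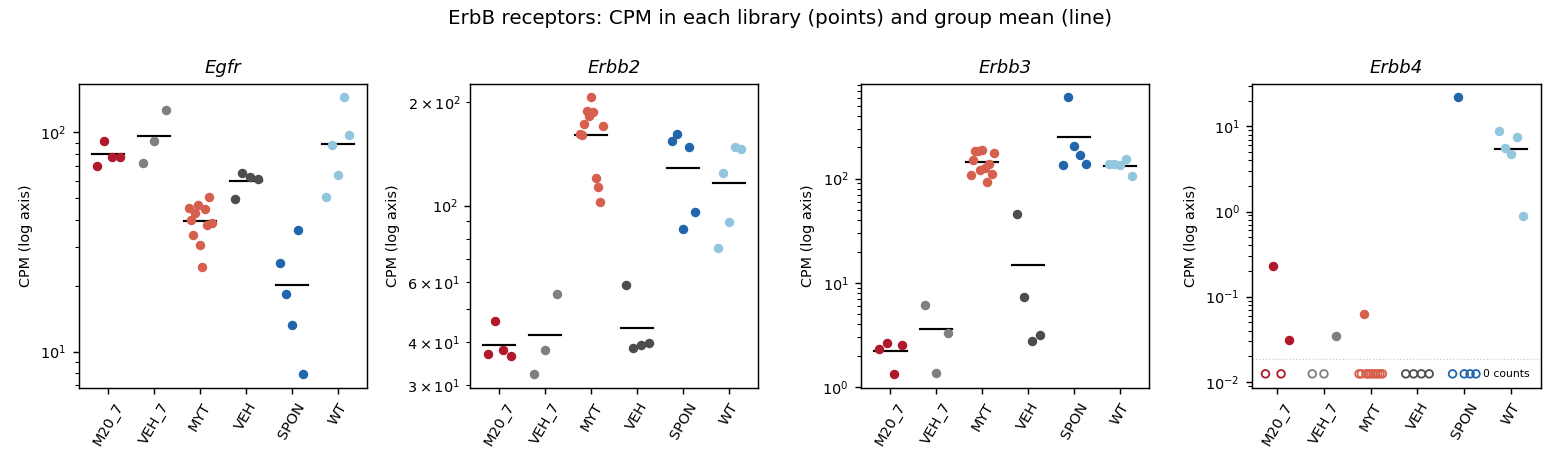
CPM of the 4 receptor genes on a log axis, 1 point per library and a line at the group mean (no line where a library had 0 counts, drawn as open circles at the bottom of the Erbb4 panel). Erbb3 lies between 92.9 and 601.8 CPM in every MYT, SPON and WT library and at or under 46.3 CPM in every other library.

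Erbb3 had the widest range of the receptors that every library expressed. It was at 92.9, 138.6 and 189.8 CPM (lowest, median, highest) in MYT, against 46.3, 7.37, 2.76 and 3.14 in VEH. VEH replicate 1 stood above the rest of its group, and it also had the highest Epcam of that group (238.6 CPM, against 8.92 to 26.3 in the other 3), whose part in the result was not tested. In the set titled _7 Erbb3 was at 2.31, 2.65, 1.34 and 2.51 CPM in M20_7, against 6.18, 1.37 and 3.31 in VEH_7. In SPON it was at 134.4, 601.8, 205.7, 167.2 and 138.2 CPM, against 136.8, 137.9, 135.2, 153.4 and 105.1 in WT. SPON replicate 2 was the high library, and the WT libraries were close together (133.7 ± 17.6 CPM, SD, n = 5). The ranges of SPON, MYT and WT overlapped, those of VEH, VEH_7 and M20_7 overlapped, and WT lay above VEH without overlap.

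Egfr was highest in VEH_7, WT and M20_7 and lowest in SPON. It was at 70.6, 91.8, 77.4 and 77.6 CPM in M20_7, against 72.2, 91.8 and 126.4 in VEH_7. In MYT it was at 24.2, 39.8 and 50.7 CPM (lowest, median, highest), against 49.7, 65.6, 62.8 and 61.5 in VEH. These ranges overlapped, with VEH replicate 1 below the highest MYT tumour. In SPON it was at 25.4, 18.3, 13.2, 36.0 and 7.91 CPM, against 50.9, 88.1, 63.9, 144.5 and 97.2 in WT, and the groups did not overlap. Along the order VEH_7, WT, M20_7, VEH, MYT, SPON, the neighbours M20_7 and VEH had ranges apart and all other neighbours overlapped.

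Erbb4, which also serves as a receptor for Nrg1, was close to absent outside the untreated tumours. In SPON, 4 of 5 libraries had 0 counts and replicate 2 had 423 counts (21.9 CPM), whereas all 5 WT libraries had counts, at 8.94, 5.52, 4.7, 7.47 and 0.892 CPM. In MYT 10 of 11 libraries had 0 counts and 1 had 1 count, against 0 counts in all 4 VEH libraries. M20_7 held 9 counts in all, 8 of them in replicate 2, against 1 count in VEH_7. A count of 0 over a group allows up to 3 counts, so no fold is given for MYT against VEH, and the 8 counts of 1 library carry the level in M20_7.

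The ligands followed other patterns, and Ereg differed most. Ereg was at 0.0684, 0.505 and 4 CPM (lowest, median, highest) in MYT, against 139.1, 230.9, 59.9 and 55.3 in VEH. In the set titled _7 it was at 0.719, 0.374, 0.479 and 0.404 CPM in M20_7, against 0.19, 0.261 and 0.379 in VEH_7. The vehicle tumours of the 2 sets thus differed in Ereg without overlap, and VEH stood above every library of the other 5 groups. SPON tumours had 6.22, 1.14, 0.0681, 0.387 and 1.11 CPM, against 0.166, 0.127, 0.178, 0.101 and 0.0557 in WT, where 11 counts were seen over 5 libraries.

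Tgfa separated the set titled _7 from all other tumours. It was at 35.4, 56.4 and 94.9 CPM (lowest, median, highest) in MYT, against 26.9, 40.5, 7.88 and 10.1 in VEH. VEH replicate 2 lay inside the MYT range. MYT replicates 3 to 7, whose titles carry the higher numbers, had Tgfa at 75.2 to 94.9 CPM, against 35.4 to 56.4 in the other MYT tumours. Erbb2 was apart there too, at 172.5 to 206.3 against 102.5 to 170.8 CPM, and all other members overlapped. This split was seen after the values were read and was not tested. The labels do not explain the numbers, so MYT may not be a uniform group. In M20_7 Tgfa was at 0.908, 0.748, 0.67 and 0.466 CPM, against 0.493, 0.586 and 0.414 in VEH_7, with overlap. SPON had 73.5, 87.9, 68.9, 29.6 and 23.8 CPM, against 42.1, 17.4, 37.0, 12.6 and 12.5 in WT, with overlap. Only VEH and M20_7 were neighbours without overlap in the order MYT, SPON, WT, VEH, M20_7, VEH_7.

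Nrg1, the ligand of Erbb3 and Erbb4, was lowest in MYT. It was at 0.438, 1.18 and 2.82 CPM (lowest, median, highest) in MYT, against 14.4, 11.5, 5.6 and 9.58 in VEH, and the ranges were apart. M20_7 tumours lay close together at 14.9, 16.0, 15.1 and 15.6 CPM, against 18.7, 33.1 and 14.4 in VEH_7. The untreated tumours varied most: SPON had 0.778, 6.56, 72.6, 2.07 and 27.7 CPM, against 3.64, 25.5, 2.32, 16.3 and 2.45 in WT. The 72.6 CPM of SPON replicate 3 was the highest Nrg1 of all 32 libraries, and M20_7 and VEH were the neighbours without overlap in the order of means.

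**Figure D2:**
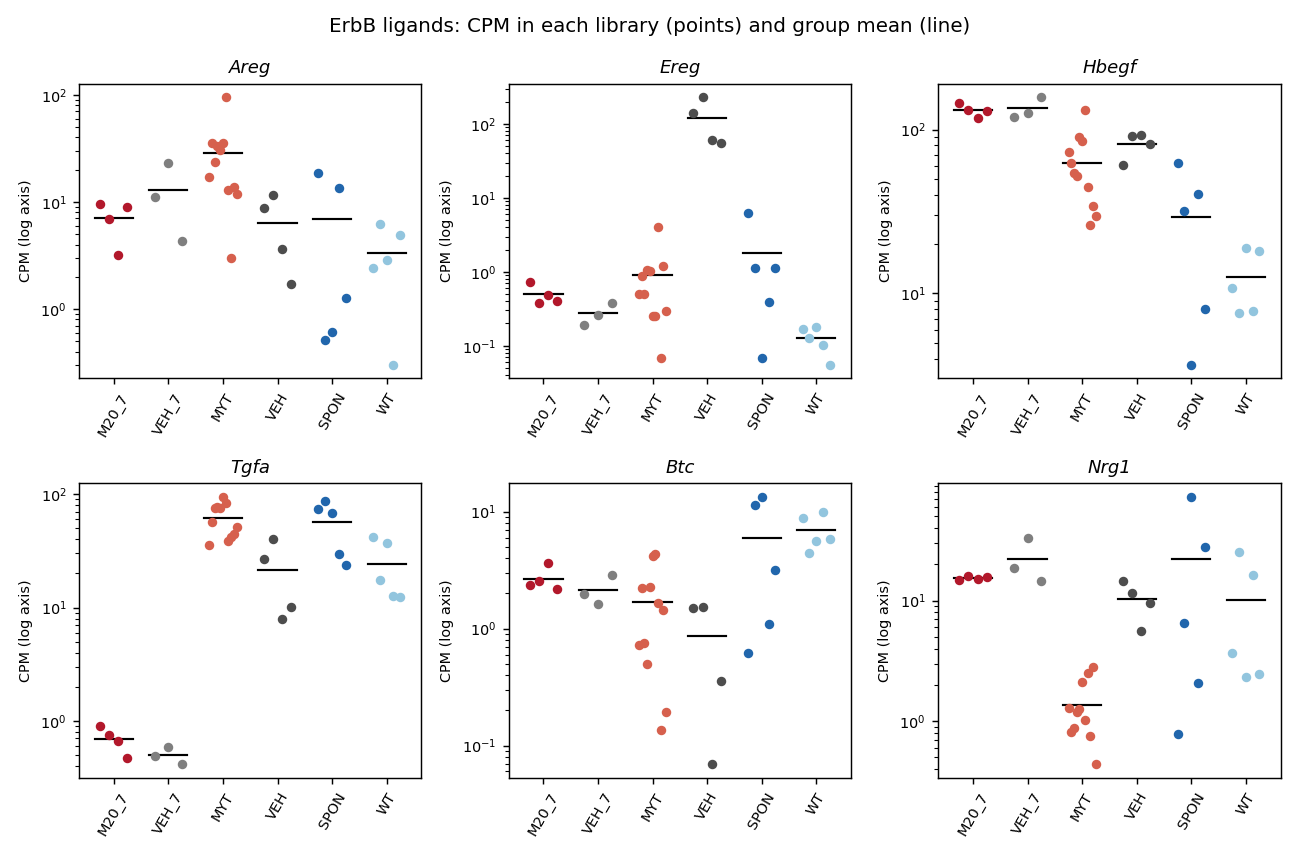
CPM of the 6 ligand genes on log axes, 1 point per library and a line at the group mean. Ereg lies at 55.3 to 230.9 CPM in VEH and at or under 6.22 CPM in every library of the other groups, and Tgfa lies under 1 CPM in M20_7 and VEH_7.

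Areg varied widely within MYT, at 3.01, 23.5 and 95.3 CPM (lowest, median, highest), against 8.69, 11.5, 3.66 and 1.71 in VEH. The MYT range covered most of the VEH range. Areg was at 9.53, 6.85, 3.19 and 8.88 CPM in M20_7, against 11, 23.1 and 4.28 in VEH_7. SPON had 18.6, 0.517, 0.613, 13.6 and 1.27 CPM, against 2.43, 6.22, 2.85, 0.303 and 4.96 in WT. No neighbours in the order of the group means of Areg had ranges apart. Hbegf, an Egfr ligand first found in macrophages, was at 117.5 to 145.3 CPM in M20_7 and 119.0 to 157.9 in VEH_7, at 26 to 131.2 in MYT and 60.8 to 92.5 in VEH, and at 3.68 to 62.3 in SPON and 7.62 to 19.0 in WT. Only M20_7 and VEH were apart among its neighbours. Btc, a low-abundance ligand, was at 2.2 to 3.61 CPM in M20_7 and 1.63 to 2.86 in VEH_7, at 0.137 to 4.35 in MYT and 0.0691 to 1.52 in VEH, and at 0.622 to 13.4 in SPON and 4.44 to 10 in WT, and every pair of neighbours overlapped.

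Per kb of exon, both the sum of the 4 receptor transcripts and the shares of Egfr and Erbb3 in it differed between the groups, while the mean share of Erbb2 lay between 40.2% and 52.9% in all 6. Egfr made up 46.9% ± 1.18 (SD, n = 4) of the receptor sum in M20_7 and 49.5% ± 2.55 (SD, n = 3) in VEH_7, with Erbb2 at 50.6% ± 1.14 and 46.6% ± 0.936. In MYT the share of Egfr was 6.33% ± 2.21 (SD, n = 11) and that of Erbb3 40.9% ± 4.95, against 34.9% ± 10.8 and 12.2% ± 14 (SD, n = 4) in VEH. VEH replicate 1 stood apart, with 18.8% Egfr and 32.9% Erbb3, where the other 3 VEH tumours had 39.9% to 40.9% Egfr and 3.4% to 8.51% Erbb3. The share of Erbb2 was 52.8% ± 5.07 in MYT and 52.9% ± 3.78 in VEH. A share also moves with the other members: the level of Egfr itself was 3.5 ± 0.679 CPM per kb in MYT and 5.29 ± 0.62 in VEH, beside 30.8 ± 6.51 and 8.47 ± 1.89 for Erbb2 and 23.9 ± 5.8 and 2.47 ± 3.49 for Erbb3. Egfr held 2.93% ± 1.76 (SD, n = 5) in SPON and 14.4% ± 3.23 (SD, n = 5) in WT, ranges that did not overlap (1.2% to 5.36% and 10.6% to 19%). The receptor sum was 58.2 ± 10.7 CPM per kb in MYT and 16.2 ± 4.78 in VEH, 14.9 ± 1.68 in M20_7 and 17.2 ± 4.56 in VEH_7, and 68.3 ± 37.5 in SPON and 52.9 ± 9.66 in WT. These shares and sums are descriptions with no test.

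**Figure D3:**
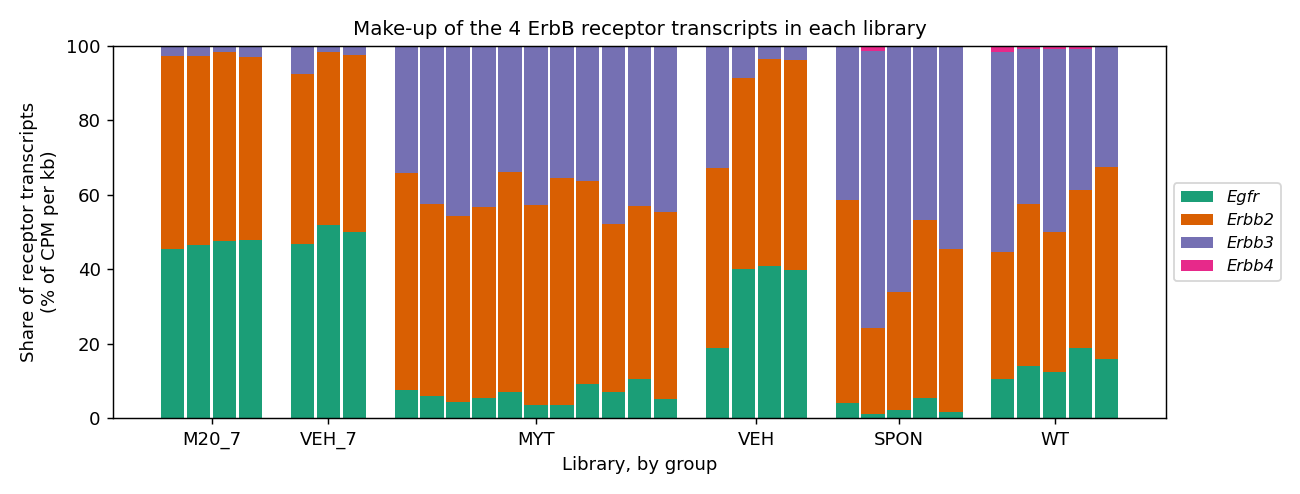
Share of each receptor in the sum of the 4 receptor transcripts (% of CPM per kb of exon), 1 bar per library, by group. Egfr and Erbb2 fill most of each bar in M20_7 and VEH_7, and Erbb2 and Erbb3 fill most of it in MYT, SPON and WT.

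The leading ligand on the same scale also differed. Hbegf made up 77.2% ± 3.95 (SD, n = 4) of the summed level of the 6 ligands in M20_7 and 69% ± 15.8 (SD, n = 3) in VEH_7. By group mean, Areg led in MYT with 44.9% ± 12.3 (SD, n = 11), followed by Hbegf with 29.4% ± 6.61 and Tgfa with 24% ± 9.24. Hbegf was first in MYT replicate 1 (43.0%, with Areg at 40.3%) and Tgfa in replicate 9 (44.9%, with Areg at 17.1%). The lead of Areg holds per kb of all annotated exons (1215 bases, against 4834 for Hbegf and 6490 for Tgfa). In CPM the mean of Areg in MYT was 28.4, against 62.1 for Hbegf and 61.4 for Tgfa. In VEH, Ereg led by mean with 48.6% ± 11.9 (SD, n = 4), followed by Hbegf with 35.2% ± 16.5. Ereg was first in VEH replicates 1 and 2 (56.8% and 60.8%), and Hbegf in replicates 3 and 4 (49.8% and 49.2%, with Ereg at 37.8% and 39.2%). In SPON the first by mean was Tgfa with 37.5% ± 15.4 (SD, n = 5), as in WT with 31% ± 14.1 (SD, n = 5), and in both the spread between tumours was wide.

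Whether RP-6306 tumours differ from vehicle tumours was asked within each set with the quasi-likelihood test of edgeR over all genes, with Benjamini-Hochberg adjustment and a threshold of 0.05. In the set without the suffix, Erbb2, Erbb3, Areg and Tgfa were higher and Egfr, Ereg and Nrg1 lower in MYT than in VEH tumours. Of 16021 genes tested, 59.5% passed, 30.5% as higher and 29% as lower, and 9 members were tested, of which 4 were higher and 3 lower, so a member's passing is no rare event here. The labels give no tumour line, and an effect of RP-6306 and a difference between tumours cannot be told apart. The median log2 fold change was 0.95 over the 9 members and 0.04 over all genes.

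The largest difference was that of Ereg, at -7.07 ± 0.54 on the log2 scale (± SE; edgeR adjusted p = 1.98e-08), a 134-fold lower level in MYT. Erbb3 was higher by 3.27 ± 0.60 (adjusted p = 0.000171), and by 5.04 ± 0.36 (adjusted p = 1.05e-08) without VEH replicate 1. For Nrg1 the value was -2.90 ± 0.36 (adjusted p = 3.09e-06) and for Erbb2 1.86 ± 0.19 (adjusted p = 4.5e-07). Ranges were apart for these 4 of the 9 members tested, against 35.1% of all genes (16.9% higher and 18.2% lower). Areg was higher by 2.15 ± 0.69 (adjusted p = 0.0125) and Tgfa by 1.53 ± 0.38 (adjusted p = 0.00236), both with overlapping ranges. The smallest called difference was that of Egfr, at -0.59 ± 0.15 (adjusted p = 0.0028). Hbegf (-0.39 ± 0.32, adjusted p = 0.311) and Btc (0.95 ± 0.80, adjusted p = 0.317) did not pass. All 7 calls held without any 1 of the 15 libraries, and Erbb4 had too few counts to be tested.

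**Figure D4:**
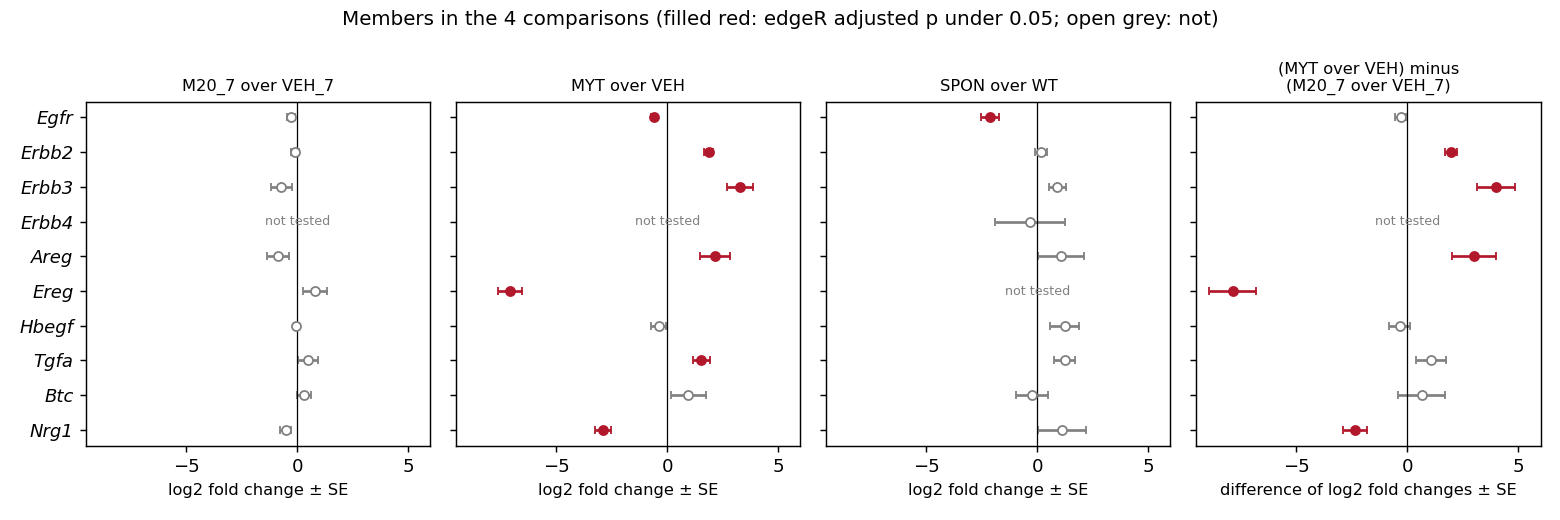
Log2 fold changes with standard errors of the 10 members in the 3 comparisons of groups and, at the right, the difference of the fold changes of the sets. Filled red points passed an edgeR adjusted p of 0.05, open grey points did not, and members with too few counts are marked as not tested. Ereg stands at -7.07 in MYT over VEH and at 0.81 in M20_7 over VEH_7.

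In the set titled _7 no member passed, beside 0% of 16699 genes. edgeR had 1033 genes at an unadjusted p under 0.05, DESeq2 called 55 genes and limma voom 0. No member was called by any of them, and DESeq2 gave no adjusted p for Ereg and Tgfa. Ranges of M20_7 and VEH_7 overlapped for all 9 members tested, against 6.67% of genes with ranges apart (3.1% higher and 3.58% lower). Nrg1 had the smallest p of the members, at -0.52 ± 0.24 on the log2 scale (edgeR adjusted p = 0.797). The best measured was Hbegf at -0.04 ± 0.12 (adjusted p = 0.966), then Egfr at -0.29 ± 0.17 (0.849) and Erbb2 at -0.09 ± 0.18 (0.951). Erbb3 (-0.71 ± 0.46) and Areg (-0.85 ± 0.50) rested on 1 vehicle tumour each, with -0.09 without VEH_7 replicate 1 and -0.11 without VEH_7 replicate 2. Ereg (0.81 ± 0.54), Tgfa (0.48 ± 0.45) and Btc (0.31 ± 0.31) were measured on low counts. A p that misses the threshold does not show that the groups were alike.

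The difference between the sets was tested as the log2 fold change of MYT over VEH minus that of M20_7 over VEH_7. It passed for Erbb2 (1.96 ± 0.28, edgeR adjusted p = 2.09e-05), Erbb3 (3.98 ± 0.85, 0.000932) and Areg (3.02 ± 0.99, 0.0205) as higher, and for Ereg (-7.86 ± 1.07, 1.17e-05) and Nrg1 (-2.37 ± 0.54, 0.00176) as lower. These were 5 of 9 members tested, against 36% of 17095 genes (17% higher and 18.9% lower). For Erbb3 the difference was 5.72 without VEH replicate 1 and 3.35 without VEH_7 replicate 1. The call of Areg was lost without VEH_7 replicate 2 (2.26, adjusted p = 0.0971), with limma voom (0.0697) and in 1 fit over all 32 libraries (0.0947), and that of Nrg1 in the fit over 32 libraries (0.135). Tgfa differed by 1.07 ± 0.69 (0.24), Egfr by -0.30 ± 0.26 (0.389), Hbegf by -0.34 ± 0.48 (0.617) and Btc by 0.65 ± 1.06 (0.673), which did not pass.

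Between the untreated tumours, Egfr alone among the members passed, and it was lower in SPON than in WT. Its mean was 20.2 ± 11 CPM (SD, n = 5) in SPON and 88.9 ± 36.1 CPM (SD, n = 5) in WT, a log2 fold change of -2.12 ± 0.42 (edgeR adjusted p = 0.014), and the call held without any 1 of the 10 libraries (largest adjusted p = 0.0395). Of 15558 genes 8.38% passed (4.52% higher and 3.86% lower), so 1 of 9 members tested is near that share. Of the 9 members tested, ranges were apart for Egfr only, against 9.81% of genes (4.36% higher and 5.45% lower). Summed mesenchymal markers were at 1370.9 to 6835.3 CPM in SPON and 846.4 to 2243.8 CPM in WT, and their part in the result was not tested. Tgfa (1.23 ± 0.46, adjusted p = 0.118), Hbegf (1.23 ± 0.65, 0.25), Nrg1 (1.12 ± 1.08, 0.545) and Areg (1.06 ± 1.03, 0.547) had positive log2 fold changes that did not pass. Erbb2 (0.15 ± 0.27, 0.748) and Btc (-0.23 ± 0.71, 0.869) did not pass either.

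Several of these values rested on 1 SPON tumour. Erbb3 stood at 0.90 ± 0.39 (edgeR adjusted p = 0.171), and at 0.27 without SPON replicate 2. Nrg1 stood at -0.13 without SPON replicate 3 and at 1.84 without WT replicate 2, and Areg at 0.27 without SPON replicate 1. Erbb4 stood at -0.33 ± 1.57 (adjusted p = 0.923) with all libraries. SPON replicate 2 held all Erbb4 counts of its group, so leaving it out sets SPON to 0 by construction. The call made then (adjusted p = 0.00665) follows from which library was left out and is no evidence of a difference. Ereg had too few counts to be tested in this comparison.

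Around the members, 85 genes of the ErbB pathway were read from the same fits in 7 lists. Of 83 tested in MYT against VEH, 24 were higher and 31 lower (median log2 fold change -0.06, against 0.04 over all genes), beside 30.5% higher and 29% lower among all genes. Of 84 tested in M20_7 against VEH_7, 0 passed (median -0.10, against 0.01 over all genes). Of 83 tested in SPON against WT, 6 were higher and 1 lower (median 0.23, against 0.07 over all genes), beside 4.52% higher and 3.86% lower among all genes.

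Among 5 other ErbB ligands, Epgn was lower in MYT and Nrg2 higher. Epgn, a ligand of Egfr that neighbours Ereg, averaged 0.638 ± 0.448 CPM (SD, n = 11) in MYT and 12.9 ± 9.74 CPM (SD, n = 4) in VEH (log2 fold change -4.32 ± 0.52, edgeR adjusted p = 2.45e-06). Nrg2, a relative of Nrg1, averaged 14.9 ± 6.37 CPM in MYT and 2.13 ± 3.17 in VEH (2.79 ± 0.65, adjusted p = 0.00148), so the 2 neuregulins differed in opposite directions. On chromosome 5, where Epgn, Ereg, Areg and Btc follow each other with gaps of 39.4, 46.0 and 208.8 kb, Epgn and Ereg were lower in MYT than in VEH, Areg was higher and Btc did not pass.

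The proteases that free membrane-bound ligands, and their cofactors, were lower in 5 and higher in 2 of 8 in MYT against VEH (median -0.55). Among all genes 30.5% were higher and 29% lower in that comparison. Adam12 (-3.02 ± 0.25) and Adam19 (-2.50 ± 0.25) were lower, and Rhbdf2, which escorts the sheddase Adam17 to the cell surface, was higher (1.2 ± 0.17). Of 14 negative regulators, 7 were lower and 2 higher (median -0.19), among them the ubiquitin ligases Nedd4 (-1.74 ± 0.11), Cbl (-1.15 ± 0.10) and Cblb (-0.60 ± 0.12), of which Cbl marks activated Egfr for breakdown. SPON against WT had 0 calls in both lists.

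Downstream of the receptors the calls went both ways, beside 30.5% higher and 29% lower among all genes in MYT against VEH. Of 15 adaptors and RAS-ERK kinases, 4 were higher and 5 lower in MYT (median -0.06), with Map2k1 (-0.96 ± 0.09), which encodes MEK1, lower and Mapk3 (0.86 ± 0.13), which encodes ERK1, and the adaptor Shc1 (0.84 ± 0.15) higher. Of 13 adaptors and PI3K-AKT kinases, 3 were higher and 4 lower (median -0.14), with Stat3 (1.0 ± 0.13) and Pik3r1 (1.16 ± 0.21), the regulatory subunit of PI3K, higher and Mtor (-0.72 ± 0.10) lower. In SPON against WT, Pik3r1 was the only call of that list, as lower (-2.42 ± 0.32, edgeR adjusted p = 0.00221), with 114.1 ± 40.7 CPM in SPON and 619.4 ± 165.0 CPM in WT (SD, n = 5 each).

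Of 16 ERK feedback and immediate early genes, 8 were higher and 3 lower in MYT (median 0.42). Among all genes 30.5% were higher and 29% lower in MYT against VEH, and the list was not tested. Etv5 (1.77 ± 0.18), a transcription factor induced by ERK signalling, and Phlda1 (1.70 ± 0.21) were higher, and Fosl1 (-1.61 ± 0.27), an AP-1 subunit, was lower. In SPON against WT, 3 of 16 were higher and 0 lower (median 0.36), beside 4.52% higher and 3.86% lower among all genes, with no test of the list. They were Etv4 (2.12 ± 0.27, edgeR adjusted p = 0.00177), Spry1 (1.38 ± 0.27, 0.013) and Dusp4 (2.04 ± 0.54, 0.04). Among 14 other growth factor receptors, 4 of 13 tested were higher and 6 lower in MYT (median 0.21), beside the same 30.5% and 29%. The called genes were led by Mst1r (-4.15 ± 0.30), Pdgfra (-4.05 ± 0.40) and Axl (-2.0 ± 0.21). In SPON, Igf1r (2.51 ± 0.40, adjusted p = 0.00594), Pdgfrb (1.34 ± 0.31, 0.0234) and Met (3.68 ± 1.01, 0.0458) were higher than in WT, and 0 of 13 were lower.

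Of 13 neighbours of Erbb2 on chromosome 11, 8 were tested and 7 were higher in MYT than in VEH (median 0.86, against 0.04 over all genes), beside 30.5% higher among all genes and with no test of the list. Grb7, which lies 8.7 kb from Erbb2 and encodes an adaptor that binds it, had the largest log2 fold change at 4.42 ± 0.66 (edgeR adjusted p = 2.21e-05), with 69.1 ± 16.4 CPM in MYT (SD, n = 11) and 3.18 ± 5.05 CPM in VEH (SD, n = 4). Mien1, whose exons overlap those of Erbb2 in the short stretch given above, stood at 0.99 ± 0.23. Stard3 (0.72 ± 0.12), Pgap3 (0.78 ± 0.15), Med24 (0.56 ± 0.12) and Psmd3 (0.38 ± 0.12) also had smaller values than Erbb2 (1.86 ± 0.19). Ppp1r1b (2.36 ± 0.57) was higher at low levels and Tcap (0.93 ± 0.56) did not pass. In M20_7 against VEH_7, 0 of 7 passed, with values from -0.36 for Pgap3 to 1.05 for Ikzf3. In SPON against WT, Mien1 was lower (-1.25 ± 0.33, adjusted p = 0.0387) and the other 6 tested did not pass.

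**Figure D5:**
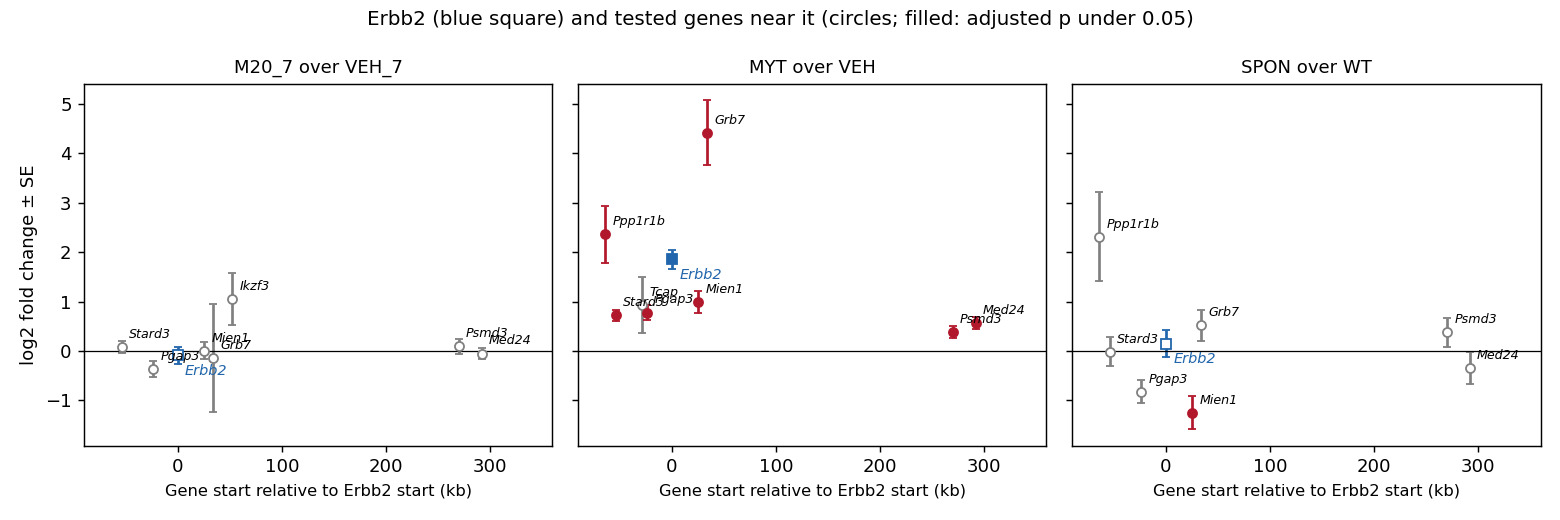
Log2 fold change with standard error of Erbb2 (blue square) and of the tested genes near it (circles), against the distance of each gene's start from that of Erbb2 in kb, in 3 comparisons. Filled symbols passed an edgeR adjusted p of 0.05. Grb7 stands at 4.42 and Erbb2 at 1.86 in MYT over VEH.

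Markers of cell types moved with these differences. Among all genes, 30.5% were higher and 29% lower in MYT against VEH, and 4.52% and 3.86% in SPON against WT. In MYT against VEH, 10 of 10 luminal epithelium markers were higher (median log2 fold change 4.29), 11 of 12 mesenchymal and fibroblast markers were lower (median -2.88), and 8 of 8 macrophage markers (median -1.80) and 6 of 6 endothelial markers (median -1.42) were lower. Summed mesenchymal markers ranged from 2377.2 to 7649.7 CPM in MYT and from 24176.2 to 40355.0 CPM in VEH, and summed macrophage markers from 587.6 to 1269.0 CPM in MYT and from 2011.8 to 2747.4 CPM in VEH. Neutrophil markers were higher in 4 and lower in 1 of 6 tested, and basal and myoepithelial markers higher in 2 and lower in 2 of 7. The lower neutrophil marker was Mmp9 (-5.93 ± 0.32), named after its value was seen. Summed neutrophil markers went the other way from the 4 higher calls, at 110.0 to 252.5 CPM in MYT and 767.8 to 2128.1 CPM in VEH. Of the 6 tested, Mmp9 alone had a negative log2 fold change, so the higher sum in VEH rests on that gene. S100a8 was at 26 to 66.7 CPM in MYT and 2.42 to 20.5 in VEH, and S100a9 at 21.5 to 56.5 and 2.49 to 15.4. Schwann cell and nerve markers, listed because Nrg1 and Erbb3 act in that lineage, were higher in 1 of 4, Sox10 (3.87 ± 0.53, edgeR adjusted p = 1.04e-05), named after its value was seen. They summed to 522.1 to 904.1 CPM in MYT and 30.8 to 131.5 CPM in VEH. T and NK cell markers were lower in 1 of 4, skeletal muscle markers in 3 of 4 and adipocyte markers in 0 of 1. In M20_7 against VEH_7 no marker of the 10 lists passed. In SPON against WT, luminal markers were higher in 1 of 10, mesenchymal markers in 2 of 12, macrophage markers in 1 of 8 and neutrophil markers in 2 of 5, and basal markers higher in 1 and lower in 1 of 8, with 0 calls in the other lists. The part of these cell types in the values of the ErbB genes was not tested.

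Genes with the most similar course were sought by the root mean square difference from each member over the 32 libraries, in log2 CPM centred on each gene's own mean, among 13080 genes. This distance grows with a member's own spread, so it does not rank the members. Erbb2, whose SD over the libraries was 0.90, was nearest to Nck2 (0.29), an adaptor of receptor tyrosine kinases, Trp53bp2 (0.33) and Rexo5 (0.36), against a median of 1.11 over genes. Erbb3, with an SD of 2.68, was nearest to Ceacam1 (0.57), Prss16 (0.58) and the membrane protease gene St14 (0.60), against a median of 2.75. Hbegf was nearest to Emp1 (0.50), Cdk6 (0.52) and Tubb6 (0.53), against 1.54, and Egfr to Brd3os (0.45), Wdr78 (0.50) and Zfp189 (0.51), against 1.10. Tgfa was nearest to Hs3st1 (0.87), Serinc2 (0.89) and Tinagl1 (0.90), and Ereg to Cnn1 (1.02), Bmp5 (1.31) and Slc6a4 (1.31). For Areg the nearest were Gcnt2 (1.04), Egr3 (1.06) and Sh2d5 (1.07), for Nrg1 Pon3 (0.98), Cln8 (0.98) and Cracr2a (0.99), for Btc Fcho1 (0.96), Mkx (1.08) and Arhgap44 (1.08), and for Erbb4 Grip1 (0.90), Arxes1 (1.0) and Atp8b5 (1.07). These libraries share groups and sets, so the distances are descriptions.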

How the data were processed

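Total RNA was extracted from the tumours with Trizol and sequenced by a commercial provider, per the labels' protocols. Per the submitters' processing notes, the build was GRCm38 and the work used STAR (2.7.10a) together with HTSeq and edgeR. The kit, strandedness and annotation release are not given in the sources used here. The authors deposited whole-number read counts for 54532 genes in 33 columns, 1 per sample. Of these rows 791 had no symbol and held 0.0482% of the counts. A second deposited table held log2 CPM, which differed from log2 CPM recomputed from the counts (TMM, prior count 2) by at most 0.0576. All results come from the counts.

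Each comparison was fitted on its own groups in R 4.3.3 by the glmQLFit and glmQLFTest functions of edgeR 4.0.16 after filterByExpr and TMM scaling, adjusted over all genes tested. Standard errors were taken from the F statistic. The fits were tested on simulated counts in which 2-fold and 4-fold changes were set, each in 92 to 99 of 15216 to 16693 genes. The fit of SPON against WT recovered 5.3% and 50% of them, so it missed most of the simulated 2-fold changes. That of MYT against VEH recovered 59.8% and 88.3%, and that of M20_7 against VEH_7 56.7% and 81.8%. For the difference between the sets the shares were 27.8% and 65.7%. The adjustment depends on the share of genes that change, and the real fits called other shares. These values are therefore not the power of the real fits. Each fit was repeated with limma voom (3.58.1), with DESeq2 1.42.0, with the size factors of DESeq2, without the low-count filter, as 1 fit over 32 libraries and without each library in turn. Members, lists and tests were chosen with earlier results of these data known. The text names all members, up to 3 called genes with the smallest p per pathway list and comparison (those of the difference between sets are not repeated), the neighbours of Erbb2 and the 3 genes nearest to each member. Replicates are numbered in accession order and pair nothing. Counts limit precision at low levels, most for Erbb4, Ereg and Btc.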

Additional observations from a re-analysis of the deposited data

Results flagged for a closer look

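By a test of the difference itself, the fold change of RP-6306 against vehicle differed between the sets for 5 of 9 members tested. Among 17095 genes 36% passed. The members were Erbb2 (1.96), Erbb3 (3.98), Areg (3.02), Ereg (-7.86) and Nrg1 (-2.37). Each value is the log2 fold change of MYT over VEH minus that of M20_7 over VEH_7. Areg lost its call without VEH_7 replicate 2, with limma voom and in 1 fit over 32 libraries, where Nrg1 lost it too. The labels give no tumour line, so treatment and tumour cannot be told apart in this contrast.

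In 7 of 39 sets of 4 or 5 libraries, 1 library lay farther from the rest than Dixon's 95% limit. Its nominal rate of 1 in 20 holds for independent values with a normal distribution. These are CPM of genes measured in the same libraries, so the flags are descriptions and show no excess over chance. SPON replicate 2 stood high for Erbb3 (601.8 CPM) and Erbb4 (21.9 CPM), and SPON replicate 1 for Ereg (6.22 CPM). VEH replicate 1 stood high for Erbb2 (58.9 CPM) and Erbb3 (46.3 CPM), and M20_7 replicate 2 for Erbb2 (46.2 CPM) and Erbb4 (0.23 CPM, from 8 counts).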

How the results depend on the processing

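All 7 calls of members in MYT against VEH held their direction and side of the threshold under every alternative run (180 of 180 values of the 9 members tested), with 8480 to 9669 genes called when 1 library was left out. In M20_7 against VEH_7, 0 members were called under any alternative, DESeq2 called 55 genes and edgeR without a filter 6, and leaving out 1 library gave 0. With 1 library left out, Hbegf ran from -0.12 to 0.09 (0.01 without M20_7 replicate 3, 0.09 without VEH_7 replicate 3) and Erbb2 from -0.24 to 0.16 (without VEH_7 replicate 3), turning sign. In SPON against WT, DESeq2 called 2648 genes and 1 fit over 32 libraries 5472, against 1303, and 506 to 1887 were called without 1 library, of which 506 to 550 without WT replicate 1, 2, 3 or 4. Members called numbered 2 without a filter (Egfr and Ereg), 3 in the fit over 32 libraries (with Tgfa, 1.22, adjusted p = 0.0234) and 1 to 2 without 1 library (with Erbb4 without SPON replicate 2). Limma voom split its calls as 557 higher and 766 lower, against 703 and 600. Btc ran from -0.78 to 0.06, turning sign without SPON replicate 1 (0.06) or 4 (0.02), and Nrg1 from -0.13 (without SPON replicate 3) to 1.84. For the difference between the sets, the fit over 32 libraries called 3501 genes, against 6151, and 3 members, and leaving out 1 library gave 5047 to 6345 genes and 4 to 5 members. Areg did not pass with limma voom (2.73, adjusted p = 0.0697) or in the fit over 32 libraries (2.99, 0.0947), nor did Nrg1 in that fit over 32 libraries (-2.39, 0.135). The cause of these changes was not tested. With CPM by total counts the order of the group means stayed the same for 6 of 10 members, and all 120 group means under both other scalings lay within 1 SD of those given. No paired analysis was possible because the labels give no replicate numbers.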

Other observations

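The sample titled VEH2860, whose labels contradict each other, had 40.6 CPM of Egfr, 37.3 of Erbb2, 1.48 of Erbb3 and 0 counts of Erbb4. Its ligands stood at 65.9 CPM for Ereg, 64.6 for Hbegf, 15.6 for Tgfa, 7.79 for Nrg1, 2.96 for Areg and 0.219 for Btc. The MYT tumours ranged from 0.0684 to 4 CPM for Ereg and from 92.9 to 189.8 for Erbb3, and the VEH tumours from 55.3 to 230.9 CPM for Ereg and from 2.76 to 46.3 for Erbb3.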
